A study of Mus musculus with 32 samples.

Results

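MII oocytes of 12-month-old mice were compared with MII oocytes of 8-week-old mice, by RNA sequencing, across all gene rows and all repeat rows of the count tables. These are 4 of the 32 libraries of the series, chosen by their titles: 2 replicates labelled 12-month and 2 labelled 8-week for the age of the female. All 4 are labelled as wild type (WT) and as untreated, and their labels differ in age. The labels give no strain or source of the females, so a difference of strain or source between the groups, in oocytes or in the 2-cell embryos below, cannot be told apart from age. They also give no number of oocytes or animals, or day of collection, so each p value speaks of the variation among these 4 samples only, and that variation may be technical. Libraries were made with Smart-seq2, which copies full-length cDNA from very small inputs. The rest of the series holds growing oocytes, 2-cell and 4-cell embryos and an embryonic stem cell line, mostly for treatments with drugs. Of these, the 2-cell embryos of 12-month females are used below as separate samples of the same age.

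An MII oocyte is the mature egg, arrested at metaphase of the second meiotic division until fertilization. It transcribes next to nothing, and its RNA was laid down during growth in the follicle and is stored, translated and degraded on a schedule until the embryonic genome is switched on. Ageing of the female is known to weaken the cohesion of meiotic chromosomes, to raise the rate of segregation errors and to alter mitochondria in oocytes. No spike-in RNA is stated, so a level can only be read against the other RNA of the same library.

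Total counts ranged from 27590754 to 28446617 per library. All 11 oocyte markers, among them the zona pellucida gene Zp3, the growth factor gene Gdf9 and the linker histone gene H1foo, had at least 10 counts in every library. Their summed level was 24310 and 22570 CPM in the young libraries and 21440 and 23190 CPM in the 12-month libraries. CPM are counts divided by the total of their own library and scaled to a fixed sum, replicates 1 and 2 in that order throughout. H1foo and Oosp1 were the largest parts of these sums, at 9792 and 7569 CPM in 8-week replicate 1. Both 12-month libraries were above both young ones for Zp1, Zp2, Zp3, Nlrp5 and Padi6, and below for H1foo and Ooep. The other markers overlapped between the ages, and 47.8% of all genes tested did not overlap. Other cell types were checked with 4 lists of markers, of which 40 genes were tested. Of these, edgeR called 0 and DESeq2 4 (Fshr and Tek higher, Cd4 and Acrv1 lower). Before adjustment (p under 0.05), 3 were higher and 3 lower. Over all genes the shares were 0.802% by edgeR, 6.74% by DESeq2, and 7.13% higher and 8.15% lower before adjustment. At such shares 0 calls by edgeR among 40 genes says little about other cells. Cumulus and granulosa markers, the follicle cells that surround the egg, summed to 613 and 337 CPM at 8 weeks and to 464 and 473 CPM at 12 months. Of these, the gap junction gene Gja1 was uneven within both ages, at 32.7 and 0.106 CPM against 23.5 and 9.77 CPM, and Foxl2 was at 0 in all libraries but 12-month replicate 1 (0.143 CPM). The FSH receptor gene Fshr stood at 0.254 and 0.0709 CPM against 1.39 and 2.32 CPM. Cyp19a1, a further marker of these cells, was present in every library, at 55.8 and 74.95 CPM against 78.35 and 86.2 CPM. Blood and immune markers summed to 5.94 and 9.96 CPM at 8 weeks and to 9.57 and 37.3 CPM at 12 months. Markers of stroma, endothelium and oviduct summed to 44.7 and 35.8 CPM against 55.0 and 40.5 CPM. Markers of sperm and spermatids summed to 79.9 and 54.7 CPM against 45.7 and 55.2 CPM, with their defining genes Prm1 and Tnp1 at or near 0 throughout. The part of other cells in the results was not tested.

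The 12-month libraries were closer to each other than the 8-week libraries were. Across genes, Pearson's r of log2(CPM + 1) was 0.980 for the 12-month pair, 0.954 for the 8-week pair and 0.927 to 0.943 for the pairs between the ages (genes are not independent replicates). Among genes of at least 10 CPM, 13 were 4-fold or more apart within the 12-month pair, 156 within the 8-week pair, and 260 to 348 between a young and an old library.

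Most stored transcripts did not pass the test, and the genes that passed had large fold changes. With edgeR's quasi-likelihood test and Benjamini-Hochberg adjustment over 15083 genes, 121 genes (0.802%) had an adjusted p under 0.05, here termed called. Of these, 41 (0.272%) were higher and 80 (0.53%) lower in the 12-month oocytes. At an unadjusted p under 0.05 there were 2305 genes, and the median log2 fold change of all genes was -0.008. The called genes had a median log2 fold change of 4.55 among those higher and of -5.16 among those lower, and no called gene changed by less than 2.04 on the log2 scale. With 2 libraries per group smaller changes may not pass this test, so the size of the set and this lower limit depend on it. On the same genes the DESeq2 Wald test called 1017. In 45 of the 80 lower genes the 12-month mean was under 1 CPM, with 0 counts in both libraries for 9, and in 19 of the 41 higher genes the 8-week mean was under 1 CPM, with 0 counts for 5. The calls therefore include many transcripts that were near detection at 1 age. All 121 genes kept their direction whichever library was left out. That is no separate support, since all of them had large changes to begin with. The calls did not hold without 12-month replicate 2, and most did not hold without 12-month replicate 1. A fit with 1 12-month library takes its spread from the 8-week pair alone, which was farther apart than the 12-month pair. Without 8-week replicate 1 there were 1105 calls, and without 8-week replicate 2 there were 1074.

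**Figure D1:**
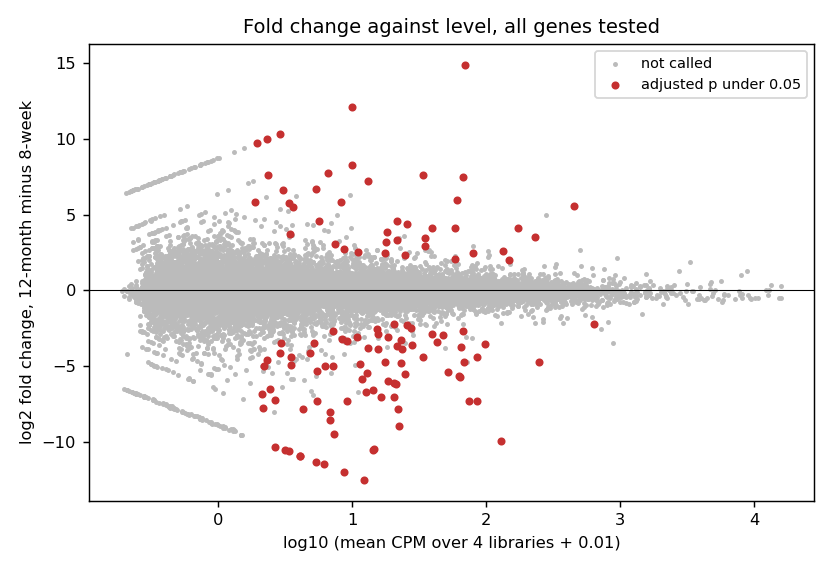
Log2 fold change (12-month minus 8-week, from edgeR) against the log10 of the mean CPM over the 4 MII libraries plus 0.01, for all 15083 genes tested; each point is a gene. The 121 called genes (red) lie at least 2.04 log2 units from 0, above and below a cloud of genes (grey) centred on 0.

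Among the genes lower at 12 months, several could not be detected at all. Slc14a1, a urea transporter gene, had 22.8 and 25.9 CPM in the young libraries and 0 counts in both 12-month libraries. It was at least 458-fold lower (a group at 0 is set to 3 counts over the group here, which covers counting error only; edgeR adjusted p = 0.00795). Rrs1, a gene for the assembly of the large ribosomal subunit, went from 16.4 and 18.2 CPM to 0 counts, at least 325-fold lower (edgeR adjusted p = 0.00897). Ctsm-ps2, a pseudogene of the placental protease cathepsin M, went from 16.6 and 7.76 CPM to 0 counts, at least 229-fold lower (edgeR adjusted p = 0.0201). In each of the 3 both young libraries were far above both old ones.

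Btla and Cd200 encode cell-surface proteins best known from the immune system, an inhibitory receptor of lymphocytes and a ligand that restrains myeloid cells. Btla had 37.5 and 20.9 CPM at 8 weeks, and at 12 months 0 counts in replicate 1 and 1 count in replicate 2 (0.0352 CPM). The ratio was 1644, with a 95% counting interval from 295 upwards (edgeR adjusted p = 0.00782). Cd200 had 40.4 and 25.0 CPM against 0.5 and 0.0352 CPM, a log2 fold change of -7.01 ± 0.88 (edgeR adjusted p = 0.0329). Values after ± are approximate standard errors derived from the test statistic. The genes are neighbours on chromosome 16 (mm10, 45224315 to 45257670 and 45382135 to 45409053). Ighg2b, which encodes an immunoglobulin heavy chain constant region, had 146 and 194 CPM against 1.54 and 0.844 CPM, a log2 fold change of -7.29 ± 0.49 (edgeR adjusted p = 0.00782). The general leukocyte gene Ptprc had at most 0.527 CPM in any of the 4 libraries, and of the immune markers DESeq2 called Cd4 lower. The part of immune cells in these genes was not tested.

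Lower genes of other functions followed. Manba, the lysosomal beta-mannosidase, stood at 163 and 134 CPM against 1.04 and 1.02 CPM, a log2 fold change of -7.28 ± 0.32 (edgeR adjusted p = 0.00322). Dnm3, a dynamin of membrane fission, stood at 46.3 and 37.4 CPM against 0.75 and 0.492 CPM, a log2 fold change of -6.17 ± 0.40 (edgeR adjusted p = 0.00741). The most abundant lower gene by its 8-week level was Trim61, a tripartite-motif gene named here after its values were seen, with 1095 and 970 CPM against 220 and 270 CPM (-2.19 ± 0.27, edgeR adjusted p = 0.0318). Slc14a1, Rrs1, Ctsm-ps2, Btla, Cd200, Ighg2b, Manba and Dnm3 stayed called without 12-month replicate 1, and Trim61 did not.

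The ribosomal protein gene Rpl37 and its retrogene Rpl37rt (chromosome 15, 5116645 to 5119140, and chromosome 5, 115102923 to 115110268) were both lower. A retrogene is a copy that arose by reverse transcription of an mRNA. Rpl37rt had 324 and 193 CPM in the young oocytes and 0.286 and 0.281 CPM in the old ones, a log2 fold change of -9.90 ± 0.43 (edgeR adjusted p = 0.00322). Rpl37 had 103 and 53.3 CPM against 10.1 and 5.91 CPM, a log2 fold change of -3.37 ± 0.43 (edgeR adjusted p = 0.0341; lost without 12-month replicate 1). Over the 84 tested genes of cytosolic ribosomal proteins, which include the pair, edgeR called no other member and DESeq2 called also Rplp1. Their median log2 fold change was 0.163, with 51 above 0. The open reading frames of the pair, 294 bases each in the GENCODE transcripts, are identical in 293 bases (99.66%), and the difference is G249A, counted from 1 at the start codon, Rpl37 first. The comparison covers the reading frames only. Positions 209 to 289 are shown to let the reader see how little sequence separates these frames, with the differing base in capitals.
Rpl37: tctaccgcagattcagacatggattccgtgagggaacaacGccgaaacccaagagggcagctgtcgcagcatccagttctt
Rpl37rt: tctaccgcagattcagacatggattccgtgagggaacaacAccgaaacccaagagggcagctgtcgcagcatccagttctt
The treatment of reads that match several places is not given in the sources used here, so counts of the pair may have been split between them, and each value is uncertain to that extent.

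**Figure D2:**
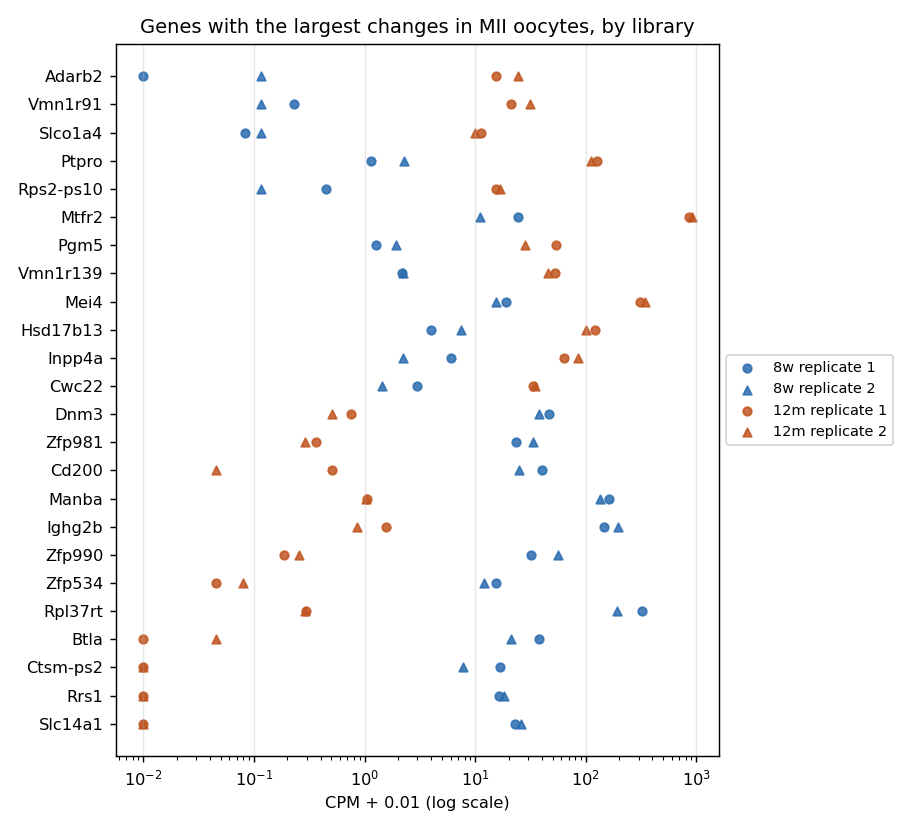
CPM + 0.01 on a log axis for the called genes with the 12 largest rises and the 12 largest falls, of at least 10 CPM in the higher group, leaving out predicted gene models; circles and triangles are replicates 1 and 2, blue 8-week and orange 12-month. Within each gene the young and old libraries do not overlap, as the selection required and as held for 47.8% of all genes tested, and points at 0.01 are libraries with 0 counts.

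Lower genes gathered in a stretch of zinc finger genes on chromosome 4. The cluster is known for zinc finger genes of the KRAB type, whose products are known for binding transposable elements and recruiting silencing chromatin. In the window from the start of Zfp990 to the end of Zfp534 (mm10, 145510759 to 147702553, 2192 kb) 28 of 75 annotated genes were tested, and 7 were called lower and 0 higher. The window was drawn after the values were seen, so it has no test, and by edgeR 0.802% of all genes were called. Its 19 tested protein-coding genes include all 7 calls. Among these 19 the log2 fold change was below 0 in 16, with a median of -3.13.

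Zfp990 stood at 31.8 and 55.6 CPM in the young oocytes and at 0.179 and 0.246 CPM in the old ones, a log2 fold change of -7.80 ± 0.59. Zfp981 stood at 23.4 and 33.2 CPM against 0.357 and 0.281 CPM (-6.59 ± 0.49). Zfp534 stood at 15.4 and 11.9 CPM against 0.0357 and 0.0703 CPM, 1 and 2 counts, a ratio of 257 with a 95% counting interval of 87.5 to 1247. For each of these 3 the edgeR adjusted p was 0.00782, and the call held without 12-month replicate 1. The predicted gene Gm21411 had 61.1 and 27.2 CPM against 0.107 and 0.0703 CPM (-8.96 ± 0.61, edgeR adjusted p = 0.00782). Zfp987, Zfp989 and Zfp985 were the other calls and lost them without 12-month replicate 1. Other genes of the window were lower without a call. Zfp988 had 4.82 and 14.6 CPM against 0.214 and 0 CPM (-6.63 ± 1.21, edgeR adjusted p = 0.0834). Rex2 had 15.4 and 24.2 CPM against 2.96 and 2.04 CPM (-3.13 ± 0.46, edgeR adjusted p = 0.0531). Not every neighbour was lower. Zfp980 had 65.7 and 21.4 CPM against 63.1 and 37.4 CPM, a log2 fold change of 0.14 ± 0.51. Zfp979 had 399 and 95.4 CPM against 435 and 369 CPM (0.65 ± 0.57), and Zfp992 had 15.2 and 8.97 CPM against 20.5 and 23.7 CPM (0.79 ± 0.33). In these 3 the adjusted p by edgeR was 0.339 to 0.935.

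**Figure D3:**
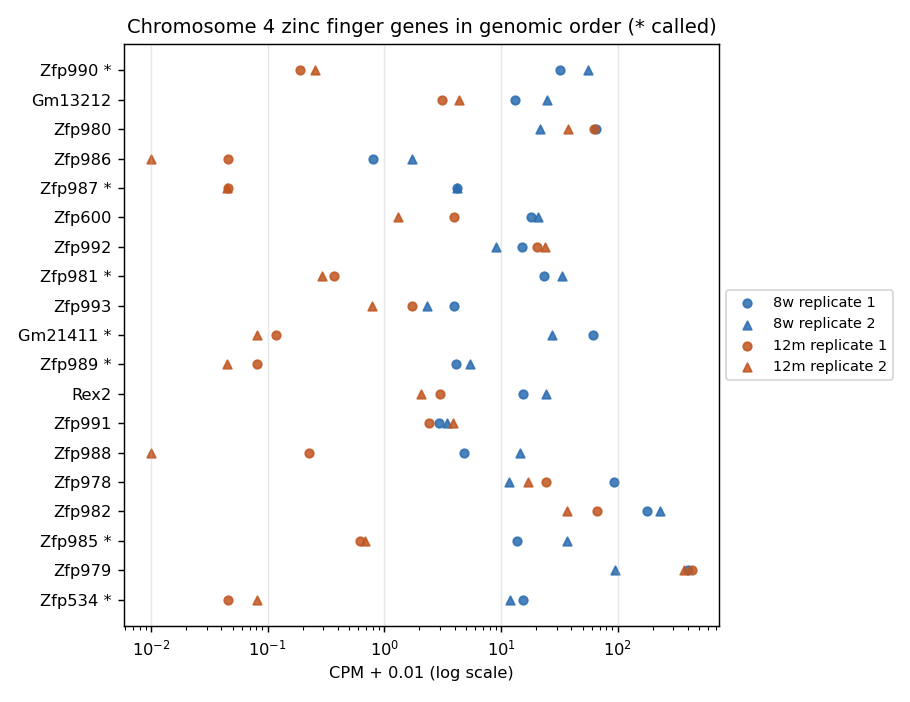
CPM + 0.01 on a log axis for the 19 tested protein-coding genes of the chromosome 4 window, in genomic order from top to bottom; circles and triangles are replicates 1 and 2, blue 8-week and orange 12-month, and stars mark the 7 genes called. The starred genes lie below 1 CPM in both old libraries, as do Zfp986 and Zfp988, which have no star. Genes without a star are interleaved with the starred ones.

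The members of this cluster resemble each other also at their starts. RefSeq promoters (GRCm38.p6, from 250 bases before to 50 after the start) were found for 9 of the window's genes, and over the 36 pairs the aligned bases were identical in 85.6% to 98.8%. Parts of 5 are shown because genes that were lower and genes that were not share them. Zfp987 (chr4:146097131-146097235), Zfp985 (chr4:147553111-147553215) and Zfp534 (chr4:147702663-147702767, minus strand) were called lower. Zfp980 (chr4:145670526-145670630) and Zfp979 (chr4:147642575-147642679, minus strand) were not called. Capitals mark TGGGAAGCTAATTAA, the longest word common to all 9, which 12 of all 32851 promoters (0.0365%) held on either strand. The 12 include the 9 from which the word was taken, so this share is no test.
Zfp987: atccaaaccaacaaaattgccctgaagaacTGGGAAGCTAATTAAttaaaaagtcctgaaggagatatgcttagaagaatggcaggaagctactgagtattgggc
Zfp985: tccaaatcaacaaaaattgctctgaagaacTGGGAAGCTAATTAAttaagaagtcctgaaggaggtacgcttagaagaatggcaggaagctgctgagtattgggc
Zfp534: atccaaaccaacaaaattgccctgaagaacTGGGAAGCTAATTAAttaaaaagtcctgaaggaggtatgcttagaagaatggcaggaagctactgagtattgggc
Zfp980: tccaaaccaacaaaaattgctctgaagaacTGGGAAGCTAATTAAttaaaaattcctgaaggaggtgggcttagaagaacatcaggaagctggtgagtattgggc
Zfp979: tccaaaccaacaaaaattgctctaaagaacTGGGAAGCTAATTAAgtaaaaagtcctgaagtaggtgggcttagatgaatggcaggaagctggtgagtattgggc
The likeness shown is of promoters, and the transcripts of these genes were not compared. If those are alike too, reads may be exchanged in counting, so levels of single members are uncertain.

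Among the genes higher at 12 months were 3 that are known for the germ line or for mitochondria and belong to the gene lists examined. Mtfr2, a regulator of mitochondrial fission, rose from 24.2 and 11.1 CPM to 861 and 906 CPM, a log2 fold change of 5.57 ± 0.42 (edgeR adjusted p = 0.00782). Mei4, which is needed to make the DNA breaks that start meiotic recombination, rose from 19.1 and 15.4 CPM to 312 and 342 CPM, a log2 fold change of 4.14 ± 0.27 (edgeR adjusted p = 0.00772). Ddx4, the germ-line RNA helicase also called Vasa, rose from 48.2 and 21.7 CPM to 449 and 409 CPM, a log2 fold change of 3.54 ± 0.39 (edgeR adjusted p = 0.0221). In all 3 the old libraries lay close together and far above both young ones. Without 12-month replicate 1 Mtfr2 and Mei4 stayed called, and Ddx4 did not.

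Other genes went from near 0 to clear levels. Ptpro, a receptor tyrosine phosphatase, had 1.12 and 2.27 CPM at 8 weeks and 125 and 111 CPM at 12 months, a log2 fold change of 5.97 ± 0.51 (edgeR adjusted p = 0.00916). Adarb2, a relative of the adenosine deaminases that edit RNA, had 0 and 0.106 CPM against 15.3 and 24.3 CPM, a ratio of 368 with a 95% counting interval of 126 to 1789 (edgeR adjusted p = 0.0204). Slco1a4, a transporter of organic anions, had 0.0725 and 0.106 CPM against 11.3 and 10.02 CPM, a log2 fold change of 6.71 ± 0.56 (edgeR adjusted p = 0.00897). The vomeronasal receptor gene Vmn1r91 had 0.218 and 0.106 CPM against 21.2 and 31.1 CPM (7.20 ± 0.52), and Vmn1r139 had 2.18 and 2.23 CPM against 52.1 and 45.9 CPM (4.35 ± 0.33), both with an edgeR adjusted p of 0.00782. Vomeronasal receptor genes have many close copies, so their counts are uncertain. Among predicted models, Gm15668 (chromosome 1, 67249200 to 67323609) had 0 counts in both young libraries and 152 and 125 CPM in the old ones, at least 2581-fold higher (edgeR adjusted p = 0.00503), the highest such bound in either direction, and is named here after its values were seen.

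The other 5 genes of the 12 largest increases were at low levels in young oocytes. Rps2-ps10, a pseudogene of ribosomal protein S2, had 0.435 and 0.106 CPM against 15.5 and 16.8 CPM (5.80 ± 0.62). Pgm5, a relative of phosphoglucomutase found at cell adhesions, had 1.27 and 1.91 CPM against 54.1 and 28.3 CPM (4.55 ± 0.52). Hsd17b13, an enzyme of lipid droplets, had 3.95 and 7.37 CPM against 121 and 100.1 CPM (4.14 ± 0.46). Inpp4a, a phosphatase of inositol lipids, had 6.02 and 2.23 CPM against 64.0 and 84.6 CPM (4.10 ± 0.49). Cwc22, a splicing factor, had 2.97 and 1.42 CPM against 33.2 and 34.6 CPM (3.86 ± 0.41). The edgeR adjusted p of these 5 genes was 0.0204 to 0.031, and each lost its call without 12-month replicate 1.

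Gene groups known for oocyte function and oocyte ageing were followed with 26 lists. Of the 892 list genes tested, markers of other cells included, edgeR called 6 (Mtfr2, Mei4, Ddx4, Rpl37, Rpl37rt and Rrs1), which is 0.673% against 0.802% of all genes. DESeq2 called 21 higher and 18 lower, which is 4.37% against 6.74% of all genes. Mei4 was counted in the list of maternal mRNA storage and decay factors. Members and lists were chosen with earlier results of these data known, so these shares are no test of the lists. Before adjustment (p under 0.05), 7.13% of all genes were higher and 8.15% lower, and the counts of the lists below are to be read against these shares. All lists described next had 0 members called by edgeR. Of the 21 cohesin genes and their protectors, 1 was higher and 4 lower before adjustment (p under 0.05), with a median log2 fold change of -0.287 (all genes -0.008), and 14 were below 0. DESeq2 called 1 of them, the cohesin subunit Stag2, at 61.2 and 39.6 CPM against 25.2 and 26.0 CPM (-1.07 ± 0.29, edgeR adjusted p = 0.168). The securin gene Pttg1, whose product holds separase inactive, was at 14240 and 12870 CPM against 12970 and 11080 CPM (-0.29 ± 0.27). The meiotic cohesin gene Rec8 did not pass the filter on low counts.

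Of the 48 spindle checkpoint, kinetochore and spindle genes, 0 were higher and 6 lower before adjustment (p under 0.05), with a median of -0.089. DESeq2 called 1, the centromere gene Cenpk, at 128 and 117 CPM against 44.6 and 47.0 CPM (-1.53 ± 0.25, edgeR adjusted p = 0.0646). The checkpoint gene Mad2l1 was at 2193 and 2777 CPM against 2726 and 2137 CPM, overlapping between the ages. Of the 29 regulators of meiotic arrest and exit, 2 were higher and 0 lower at that p, with a median of 0.055. Mos, the kinase that holds the arrest, had 458 and 331 CPM against 321 and 463 CPM, a log2 fold change of -0.11 ± 0.29, and the decay adaptor gene Btg4 had 7304 and 7655 CPM against 7971 and 7916 CPM. DESeq2 called Mapk3, the ERK1 kinase of that pathway, at 7.76 and 9.57 CPM against 36.1 and 67.3 CPM (2.45 ± 0.43, edgeR adjusted p = 0.0778).

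Of the 33 tested genes of the subcortical maternal complex and other maternal-effect genes, 6 were higher and 3 lower before adjustment (p under 0.05), with a median of 0.123. The imprint-protecting gene Dppa3 had 10450 and 11850 CPM against 16850 and 14370 CPM (0.36 ± 0.30), and H1foo 9792 and 9242 CPM against 8246 and 8822 CPM (-0.27 ± 0.27). DESeq2 called Oog1 and Nlrp9a lower and Tle6 higher. Of the 14 zona and oocyte-secreted protein genes, 2 were higher and 2 lower at that p, with a median of 0.03, and DESeq2 called Oosp2 lower and Zp2 higher. Gdf9, a growth factor the oocyte sends to cumulus cells, had 2529 and 1646 CPM against 2523 and 2818 CPM (0.26 ± 0.28). Among the 14 oocyte transcription factors the median was -0.371, 10 were below 0 and 3 were lower at that p. DESeq2 called Obox7 lower, at 1512 and 2684 CPM against 758 and 864 CPM (-1.52 ± 0.40, edgeR adjusted p = 0.168). The most abundant of them, the homeobox gene Obox2, had 12400 and 11840 CPM against 13540 and 13630 CPM, a log2 fold change of 0.05 ± 0.27.

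Transcripts of the mitochondrial genome were above 0 in log2 fold change for 14 of 15, with a median of 0.458 against -0.008 for all genes, and 0 passed an unadjusted p of 0.05 or the DESeq2 test. They took 1.67% and 6.07% of the counts in the young libraries and 5.78% and 7.30% in the old ones. The mean difference, 2.67 percentage points, rested on 8-week replicate 1: it was 0.467 points without that library and 4.87 without 8-week replicate 2 (two-sided exact permutation p = 0.667, where 0.333 is the smallest that 2 against 2 can give). mt-Cytb, a subunit of complex III, had 6337 CPM in 8-week replicate 1 and 18720 to 20160 CPM in the other 3. Of 33 autophagy and lysosome genes, 6 were higher and 1 lower before adjustment (p under 0.05), with a median of 0.605. The DESeq2 calls included Ctsd and Mcoln1, which were higher, and Atg10, which was lower. Atg5, needed to form autophagosomes, had 247 and 256 CPM against 416 and 428 CPM (0.62 ± 0.25, edgeR adjusted p = 0.318). Of 24 genes that write or erase methylation of histone H3 lysine 4, 1 was higher and 2 lower at that p, with a median of 0.032. DESeq2 called both Kdm5a, at 15.95 and 7.12 CPM against 2.00 and 2.74 CPM (-2.35 ± 0.48, edgeR adjusted p = 0.101), and Kdm5b, at 5.36 and 3.12 CPM against 11.6 and 14.8 CPM (1.55 ± 0.39, edgeR adjusted p = 0.149). These are related demethylases with opposite signs here.

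Repeat sequences, mostly remnants of transposable elements, were counted by subfamily. Of 830 subfamilies tested 9 (1.08%) were called by edgeR, 2 (0.241%) higher and 7 (0.843%) lower, and 133 had an unadjusted p under 0.05. The median of all subfamilies was -0.216, with 530 of them below 0. Long terminal repeat (LTR) subfamilies gave 7 of the calls, 1 higher and 6 lower of 511 tested, and DNA transposons 1 in each direction of 125. None of 132 LINE and 34 SINE subfamilies was called by edgeR (19 and 2 at an unadjusted p under 0.05, of which 2 LINE subfamilies were higher, and 8 and 0 by DESeq2). Repeats took 6.86% and 5.33% of all counts at 8 weeks and 5.43% and 4.63% at 12 months, a mean difference of -1.07 percentage points (two-sided exact permutation p = 0.667).

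RLTR12A, an LTR of the ERVK family, stood at 45.1 and 51.9 CPM in the young oocytes and at 2.14 and 1.23 CPM in the old ones, a log2 fold change of -4.97 ± 0.43 (edgeR adjusted p = 0.012). LTRIS3, of the ERV1 family, stood at 17.4 and 15.1 CPM against 0.714 and 0.352 CPM (-5.03 ± 0.49), LTR80A at 16.9 and 13.0 CPM against 0.714 and 0.809 CPM (-4.39 ± 0.40), and RLTR48C at 6.78 and 8.58 CPM against 0.429 and 0.598 CPM (-4.02 ± 0.52). The internal part of the ETn elements, ETnERV-int, which belongs to a family known to jump in mice, had 48.9 and 76.7 CPM against 10.1 and 10.1 CPM (-2.78 ± 0.39, edgeR adjusted p = 0.0335). RLTR17 had 92.6 and 96.0 CPM against 13.3 and 16.6 CPM (-2.78 ± 0.30), and the DNA transposon MER44D 39.5 and 44.8 CPM against 7.50 and 6.50 CPM (-2.72 ± 0.32). Higher were RMER17D2, at 3.01 and 2.66 CPM against 16.8 and 15.99 CPM (2.42 ± 0.34), and MER96, at 0.870 and 0.815 CPM against 11.6 and 10.02 CPM (3.56 ± 0.42). In all 9 the ages did not overlap, as in 53.9% of the subfamilies tested. All 9 lost their calls without either 12-month replicate, when edgeR called 0 subfamilies (70 at an unadjusted p under 0.05 without replicate 1 and 54 without replicate 2).

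The elements best known in oocytes and early embryos were not called. MTA_Mm, an LTR that drives many oocyte transcripts, had 3920 and 3306 CPM against 4465 and 3722 CPM (0.07 ± 0.26), and MT2_Mm, the LTR of MERVL, had 105 and 106 CPM against 192 and 189 CPM (0.73 ± 0.25, edgeR adjusted p = 0.211). MERVL-int had 50.5 and 23.0 CPM against 25.0 and 28.0 CPM (-0.55 ± 0.37), and IAPEz-int 50.8 and 32.5 CPM against 29.0 and 15.1 CPM (-1.02 ± 0.39, edgeR adjusted p = 0.278). The LINE L1Md_T, at 26.8 and 25.1 CPM against 25.0 and 24.3 CPM (-0.19 ± 0.27), and the SINE B1_Mm (-0.42 ± 0.25) did not pass either. How reads of repeats inside genes were counted is not given in the sources used here, and the tables do not separate the loci of a subfamily.

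**Figure D4:**
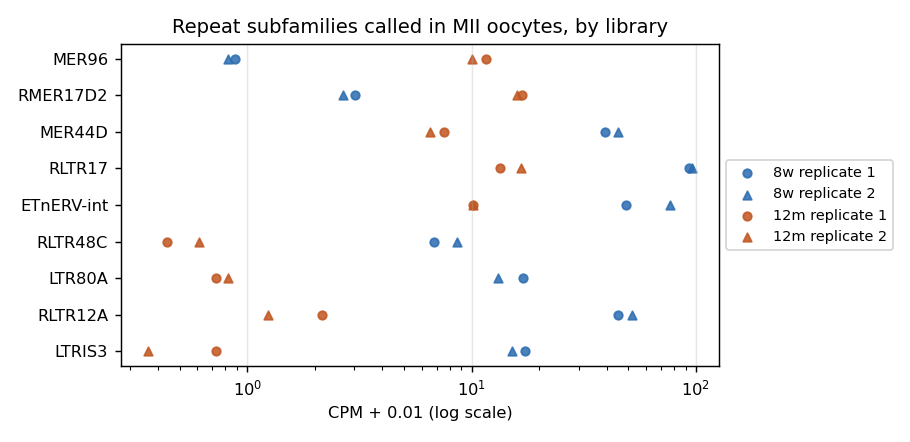
CPM + 0.01 on a log axis for the 9 repeat subfamilies called in MII oocytes; circles and triangles are replicates 1 and 2, blue 8-week and orange 12-month. The 7 lower subfamilies lie at 16.6 CPM or less in the old libraries, and RMER17D2 and MER96 lie at 10.02 CPM or more in them.

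The 2-cell embryos of 12-month females allowed the same genes to be looked at in samples that share no library with the oocytes. They are labelled wild type, untreated and, by their titles, made by in vitro fertilization. They were compared with 2-cell embryos of 6-to-8-week females that received the vehicle DMSO, so at this stage age and vehicle cannot be told apart. There 116 of 19486 genes (0.595%) were called by edgeR, 56 (0.287%) higher and 60 (0.308%) lower. Of the 121 genes called in oocytes 117 were tested at 2 cells, and 115 had the same sign, 39 of 40 higher and 76 of 77 lower. Over all 14415 genes tested at both stages the sign was the same in 61.5%. The exceptions were Cwc22 and Car1, a carbonic anhydrase gene at 1.46 CPM or less in those embryos. Both stages called 43 genes in the same direction, 12 higher and 31 lower, which is 35.5% of the calls in oocytes and 37.1% of those at 2 cells.

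As a wider reference, both 12-month 2-cell libraries were placed against all 8 libraries of 2-cell embryos of 6-to-8-week females, whether given DMSO, aphidicolin, cycloheximide or MG132. For 94 of the 121 genes, 34 higher and 60 lower, both old libraries lay outside all 8 young ones in the direction seen in oocytes, against 16.6% of the 15083 genes in either direction. Ptpro had 106 and 92.4 CPM in the old 2-cell embryos and 0.77 and 0.183 CPM in the vehicle embryos, a log2 fold change of 8.02 ± 0.62 (edgeR adjusted p = 0.0162). Ddx4 had 261 and 308 CPM against 28.4 and 26.5 CPM (3.70 ± 0.24, edgeR adjusted p = 0.0149). Gm15668 had 111 and 88.0 CPM against 0 and 0.0732 CPM (edgeR adjusted p = 0.0141). Cd200 had 1.14 and 0.282 CPM against 114 and 148 CPM (-7.16 ± 0.69, edgeR adjusted p = 0.0212), and Zfp990 had 0.677 and 1.09 CPM against 29.0 and 46.7 CPM (-5.10 ± 0.46, edgeR adjusted p = 0.0212). In these genes the same order of old and young held before and after fertilization. A test of the difference between the 2 stages in 1 model of all 8 libraries called 5 of 20649 genes (0.0242%), of which Rpl37rt, Cwc22 and B020011L13Rik are among the 121.

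Other oocyte calls were not called at 2 cells, and the test between stages did not call the 3 genes given next. Mtfr2 had 78.4 and 123 CPM in the old embryos against 30.3 and 37.9 CPM (1.88 ± 0.29, edgeR adjusted p = 0.0666). Rrs1, at 0 counts in the old oocytes, had 0.855 and 3.14 CPM in the old embryos against 5.57 and 2.31 CPM. Its log2 fold change at 2 cells was -0.68 ± 0.80 (edgeR adjusted p = 0.745), and the ages overlapped. The fitted difference of Rrs1 between the stages was large, 11.63 ± 1.53 (edgeR adjusted p = 0.12). With 0 counts in the old oocytes that value is no bound. Adarb2 had 35.7 and 35.4 CPM against 19.7 and 14.9 CPM (1.38 ± 0.29, edgeR adjusted p = 0.116). Of the 9 repeat subfamilies called in oocytes, 8 had the same sign at 2 cells. Most subfamilies were below 0 at both stages, 530 of 830 in oocytes and 664 of 989 at 2 cells. The share of equal sign over all subfamilies was not counted, so 8 of 9 has no reference. At 2 cells edgeR called 0 of 989 subfamilies (114 at an unadjusted p under 0.05, 20 by DESeq2). RLTR12A was closest, with a log2 fold change of -2.96 ± 0.32 (edgeR adjusted p = 0.0725), and LTR80A was the exception (0.36 ± 1.02).

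**Figure D5:**
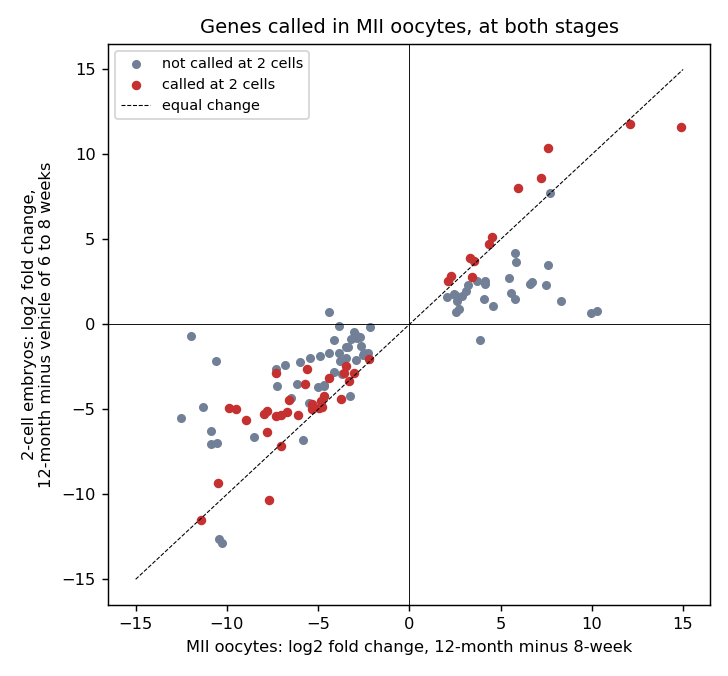
Log2 fold change at 2 cells (12-month minus vehicle embryos of 6 to 8 weeks) against that in MII oocytes (12-month minus 8-week) for the 117 genes called in oocytes and tested at both stages; red genes were called also at 2 cells and the dashed line marks equal change. All but 2 points lie in the quadrants of equal sign.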

How the data were processed

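RNA was measured in 4 MII oocyte libraries, with 2-cell embryos as further samples. The authors deposited, per sample, a table of read counts, not normalized, for 55335 genes and 1153 repeat subfamilies. Per the submitters' processing notes, cutadapt 1.16, STAR and mm10 were used. How reads were assigned to features (program, annotation, strand, reads with more than 1 position) is not given in the sources used here, so genes with near-identical copies and overlapping or antisense genes are uncertain. Symbols and positions come from GENCODE vM21 of that build, promoter sequences from RefSeq (GRCm38.p6).

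Groups follow the labels. The MII libraries, and separately the 2-cell libraries, were fitted with edgeR 4.0.16 in R 4.3.3: filterByExpr (minimum count 10, minimum total 15), TMM over genes and repeats, and the robust quasi-likelihood F-test, with Benjamini-Hochberg adjustment over genes and, separately, over repeats at 0.05. The difference between the stages used all 8 libraries. Printed levels are counts relative to the library's own total (CPM). Values after ± are the absolute log2 fold change divided by the square root of the F statistic, so they add nothing to the p value. On simulated data put through the same fit, not all known changes were recovered and some calls were false. The genes named are the called genes with the 12 largest rises and the 12 largest falls, of at least 10 CPM in the higher group, without overlap and without predicted models, all called list members, 16 index genes, the 3 most abundant members of a list, and all called subfamilies. Members and lists were chosen with earlier results of these data known. Alternatives were DESeq2 1.42.0 size factors and Wald test, no filter, a 5 CPM filter, a replicate block, gene-only library sizes, a fit shared by both stages, and leaving out each library. Bounds and intervals cover counting error only, since reads carry no molecular identifiers.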

Additional observations from a re-analysis of the deposited data

Results flagged for a closer look

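The age difference itself differed between the stages for 5 of 20649 genes (0.0242%) in a model of all 8 libraries (edgeR adjusted p for 2-cell minus MII, 0.0188 to 0.0376), and 1732 genes had an unadjusted p under 0.05. Leaving out MII 12-month replicate 2 gave 0 genes (1152 of 24155 at an unadjusted p under 0.05), leaving out MII 12-month replicate 1 gave 2, and the other libraries gave 5 to 31. At 2 cells the older embryos also lack the vehicle, so the difference cannot be assigned to the stage.

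Obox2, an oocyte homeobox gene, was at 12400 and 11840 CPM against 13540 and 13630 CPM in young and old oocytes, and at 213 and 197 CPM in vehicle 2-cell embryos against 1980 and 1921 CPM in those of 12-month females, a difference of 3.52 ± 0.33. Rpl37rt was lower with age at both stages but less so at 2 cells, where it was at 31.6 and 56.9 CPM against 1.14 and 1.23 CPM, a difference of 5.002 ± 0.574. B020011L13Rik was at 0.834 and 0.532 CPM against 138 and 129 CPM in oocytes and at 68.0 and 36.5 CPM against 212 and 204 CPM at 2 cells, a difference of -5.18 ± 0.49. Cwc22 was higher with age in oocytes and was at 72.7 and 49.0 CPM against 20.2 and 30.3 CPM at 2 cells, a difference of -4.82 ± 0.53. Ins2, an insulin gene, was at 15.7 and 12.6 CPM against 4.21 and 6.36 CPM in oocytes and at 0 counts in both vehicle 2-cell libraries against 2.00 and 4.09 CPM, so its fitted difference of 10.80 ± 1.07 depends on the prior count and is no bound.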

How the results depend on the processing

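The count of 121 genes in oocytes became 1017 with the DESeq2 Wald test, 788 without the filter, 264 with the fit shared by both stages and 0 to 1105 with 1 library left out. For the 9 subfamilies these values were 63, 56, 31 and 0 to 61. The 116 genes at 2 cells became 1438, 1584, 255 and 139 to 1220, and 569 with the 5 CPM filter. The 5 genes that differed between stages became 158 with the Wald test, 330 without the filter, 8 with the 5 CPM filter and 0 to 31 with 1 library left out, and the 6 list genes 28 without the filter and 0 to 73. All 121 genes kept their direction in each of these fits that tested them, which their large changes made likely beforehand. They stayed called with DESeq2 size factors, with the Wald test and without the filter. Of the called genes, 40 stayed called without 12-month replicate 1, 106 in the shared fit and 115 with gene-only library sizes.

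Same-numbered MII libraries share only a number in the labels, and their deviations correlated at -0.106 over 15083 genes. With the replicate number as a block the counts were 188 genes (115 of the 121), 12 subfamilies, 5 genes between stages and 357 genes at 2 cells. With the numbers crossed, an alternative chosen after seeing the data, 124 genes (102 of the 121) and 13 subfamilies were called.

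Values not called with all 4 libraries changed sign with 1 library left out: Obox2 (-0.040 without 8-week replicate 1, to 0.118), Mos (0.007 without that library and 0.141 without 12-month replicate 1, down to -0.413), MTA_Mm (-0.055 without 12-month replicate 1, to 0.183) and Gja1 (-0.993 without 8-week replicate 2 and -0.737 without 12-month replicate 1), which was at -0.003 in the shared fit. Without 8-week replicate 1 the cumulus marker Gja1 was called higher, at 6.996 (edgeR adjusted p = 0.00949). The shares of repeats and of mitochondrial transcripts kept their direction (-0.302 to -1.83 and 0.467 to 4.87 percentage points).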

Other observations

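Pseudogenes and segments of immune receptor genes were among the oocyte calls. Of 908 pseudogenes tested 23 (2.53%) were called by edgeR, 3 higher and 20 lower, of 1959 long non-coding RNAs 23 (1.17%), 7 higher and 16 lower, and of 11814 protein-coding genes 70 (0.593%), 31 higher and 39 lower. Of 32 immunoglobulin or T cell receptor segments 4 (12.5%) were called, all lower. Besides Ighg2b these were C920008G01Rik, Trav7n-6 and Trav7-6 on chromosome 14. Trav7-6 had 145 and 99.2 CPM at 8 weeks and 2.82 and 2.50 CPM at 12 months (edgeR log2 fold change -5.62 ± 0.32, adjusted p = 0.00503). The transcripts of Trav7n-6 and C920008G01Rik are identical over 380 bases, and Trav7-6 and Trav7n-6 over 97.64%, so these are not independent calls.

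The next 5 called genes were chosen after their values were seen, and no list that holds them was tested. Agtpbp1, a carboxypeptidase that trims glutamates from tubulin, had 57.6 and 50.2 CPM against 231 and 248 CPM (2.04 ± 0.25, edgeR adjusted p = 0.031). Its relative Agbl2 had 34.3 and 61.4 CPM against 0.75 and 1.58 CPM (-5.50 ± 0.61), and Ttll7, which adds glutamates, had 9.21 and 4.25 CPM against 0.25 and 0.211 CPM (-4.92 ± 0.61). Pde4d, which degrades cyclic AMP, had 5.33 and 4.64 CPM against 31.1 and 28.8 CPM (2.47 ± 0.30), and Adcy2, which makes it, had 3.30 and 2.76 CPM against 16.1 and 22.01 CPM (2.55 ± 0.36, edgeR adjusted p = 0.0491). All 5 lost their calls without either 12-month replicate. With called genes taken in order along each chromosome, 14 consecutive pairs had starts within 1 Mb, 13 of them in 1 direction. Among them were Mfap1a and Mfap1b, which are identical in 96.64% of aligned bases, and the zinc finger genes of chromosome 4. No such count was made for all genes.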
